A study of Mus musculus with 3 samples.

Results

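Blood progenitor regulators are the transcription factors and the receptor that set up and maintain the immature cells from which blood lineages arise. The 10 genes described here are Ikzf1, Myc, Myb, Hhex, Meis1, Sox4, Fli1, Etv6, Spi1 and Kit, of 15058 genes in the deposited tables. They were taken by gene symbol, which found 9 of them, and the gene of the factor PU.1, Spi1, was found by its gene ID under the older symbol Sfpi1. No measured value enters that rule, but the members were chosen with earlier results of these data known. RNA was sequenced from erythroblasts, the nucleated precursors of red cells, which had been sorted at E10.5 from peripheral blood of mouse embryos. The control library came from CD71+ Ter119-high cells of embryos that were Drosha fl/fl or Drosha fl/+, with Drosha abundance labelled WT. The Drosha-null library came from CD71+ Ter119-high cells of Drosha fl/fl;cdh5-cre+ embryos (cKO), with Drosha abundance labelled null. The Ter119-low library came from CD71+ Ter119-low cells of cKO embryos of that genotype, with Drosha labelled as abundant as in wild type. CD71 is the transferrin receptor, and Ter119 is an antigen that maturing red cells gain. Drosha is the nuclease that starts microRNA processing in the nucleus, and Cdh5 is a gene of endothelial cells, so that Cre acts in these cells and their blood descendants. Each group was 1 pool, of 5 embryos per the design text, and 1 library, so the spread between pools is unknown, and every difference below compares single libraries.

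At E10.5 most circulating erythroblasts are primitive, formed in the yolk sac before the definitive lineages take over. Myb and Kit are known for their need in definitive rather than primitive blood, Fli1, Hhex and Meis1 act in the endothelial and progenitor stages, and Spi1 drives myeloid fates. Myc and Ikzf1 also act in the erythroid lineage itself. Many such messenger RNAs are known microRNA targets, which bears on a study of Drosha.

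The libraries held between 9325814 and 9497425 counts, with 13277 to 13894 genes detected. All 18 erythroid markers listed were detected in every library. From here on, values given as a run of 3 follow the order control, Drosha-null, Ter119-low. Drosha had 324, 122 and 244 counts, and was lowest where it is labelled null; the counts are per gene, not for the deleted part alone. Log2 ratios rest on counts after TMM scaling, an edgeR method that equalises the bulk of genes, with 95% intervals that cover counting error only. The ratio of Drosha to the control was −1.81 (−2.13 to −1.51) in the Drosha-null library. In the Ter119-low library it was −0.49 (−0.74 to −0.25), so its RNA was below the control there too. The labels name no molecular identifiers, so reads may not be independent molecules. A gene was compared if it reached 1 CPM, the unit of scaled counts, in either library, and it was called higher or lower when the ratio was at least 2 either way and the interval excluded 1. Scaling by total counts instead raises every ratio of Drosha-null to control by 0.43. In bulk libraries, fewer cells of a type and less RNA per cell cannot be told apart.

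All 10 members had at least 1 match to a microRNA seed in the longest annotated 3' UTR, against 60.0% of 10544 genes at 1 CPM or more. The searched seeds (bases 2 to 8, from RefSeq's GRCm38.p6 table) were those of 9 of 11 chosen families. These were picked by hand and include that of miR-221-3p, known to act on Kit. The comparison with all genes is therefore a description and no test of the members. The members' 3' UTRs had a median length of 1874.5 bases, against 1253 over all genes searched. Those of Spi1 (362), Myc (466), Hhex (926) and Myb (1238) were shorter than 1253. A longer 3' UTR has more room for a match. The median density was 1.08 sites per kilobase in the members and 0.565 in all genes. A microRNA with a site in Myc or in one of the members highest in the Drosha-null library over the control (Hhex, Sox4, Fli1 and Etv6) is printed for each of them, 5′ to 3′, with the seed in capitals. For Sox4, which has sites of 3 families, it is the one whose site is an 8-base site. MicroRNA levels were not analysed here.
miR-451a: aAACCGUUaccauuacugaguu
miR-155-5p: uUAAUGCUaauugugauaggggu
miR-16-5p: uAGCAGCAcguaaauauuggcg
miR-92a-3p: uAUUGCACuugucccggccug

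The seeds of these 4 microRNAs differ from each other. A site in each of these 5 members follows as a stretch of the 3' UTR, with the 7 bases that match the seed in capitals, so that each can be read against its microRNA. Positions count from the first base after the stop codon.
Fli1 (miR-451a site, position 281 of 1572): aggttactggAACGGTTtataccatga
Myc (miR-451a site, position 49 of 466): gagtaaggagAACGGTTccttctgaca
Hhex (miR-155-5p site, position 764 of 926): acatgtatatAGCATTActtcttgtaa
Etv6 (miR-16-5p site, position 707 of 3684): ccccaccaaaTGCTGCTgtattctaga
Sox4 (miR-92a-3p site, position 2553 of 2780): catccatcctGTGCAATatgccgtgta

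Of the 21 sites in the 10 members, 8 were 8-base sites, in which an A follows the seed match, and they lay in 6 members. The match AACGGTT of miR-451a, an abundant microRNA of red cells, was in Fli1 and Myc and in 2.07% of all 3' UTRs searched. The miR-155 match AGCATTA was in Myb (at 2 positions), Hhex, Meis1 and Spi1, 4 members in all, and in 9.75% of 3' UTRs. GTGCAAT of miR-92/25 was in Ikzf1, Meis1 and Sox4 (7.92% of 3' UTRs), and TGCTGCT of miR-15/16 was in Myb, Kit and Etv6 (25.9%). ATGTAGC of miR-221-3p, a microRNA known to act on Kit, was at 2 positions in Kit and at 1 in Meis1 (11.5%). ATACTGT of miR-144-3p was in Ikzf1 and Meis1 (14.4%), CACTGCC of miR-34 in Ikzf1 and Sox4 (18.1%) and GCACTTT of miR-17-5p in Sox4 (15.4%). CTACCTC of let-7 was in 0 members and in 11% of 3' UTRs. Sites were read on the transcript strand only, no pair of the 21 matches overlapped, and a match describes letters, not a site in use. Fli1 stood above the control in the Drosha-null library and Myc below it, and both carry the miR-451a match. A link between the match and either ratio was not tested.

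**Figure D1:**
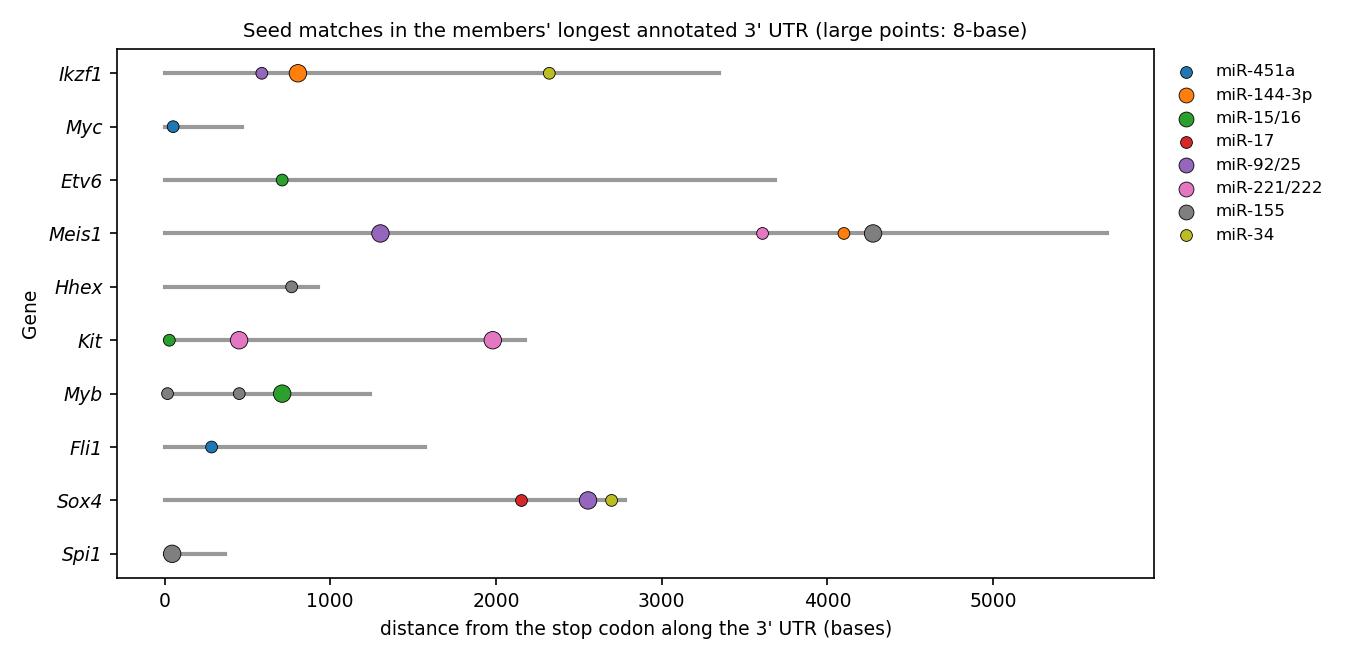
Positions of 7-base seed matches along the 3' UTR of each of the 10 genes, in bases from the stop codon, coloured by microRNA family, with larger points for 8-base matches and the grey line for the length of the 3' UTR. Meis1, with 5687 bases, holds 4 matches, and Spi1, with 362 bases, holds 1.

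The members fall into a pair of abundant genes and 8 scarce ones. Per length, as deposited FPKM, Myc stood at 88.21, 67.81 and 80.55, and Ikzf1 at 57.88, 73.4 and 58.3. In the control only 3.01% of detected genes had a higher FPKM than Myc, and 4.65% than Ikzf1. The other 8 members lay between 0.08 (Spi1) and 1.46 (Etv6) in the control, where Etv6 was exceeded by 58.9% of detected genes and Spi1 by 90.2%. Within the control the order by FPKM was Myc, Ikzf1, Etv6, Hhex, Meis1, Myb, Sox4, Fli1, Kit and Spi1, and from Etv6 down each gene's counting interval overlapped that of the next. In the Drosha-null library Ikzf1 and Myc were the highest with overlapping intervals, followed by Hhex at 5.79, Etv6 at 3.48, Sox4 at 1.4 and Meis1 at 1.37. Hhex stood apart from both of its neighbours there, whereas in the control (0.99) and the Ter119-low library (1.0) its interval overlapped those of Etv6 and Meis1.

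**Figure D2:**
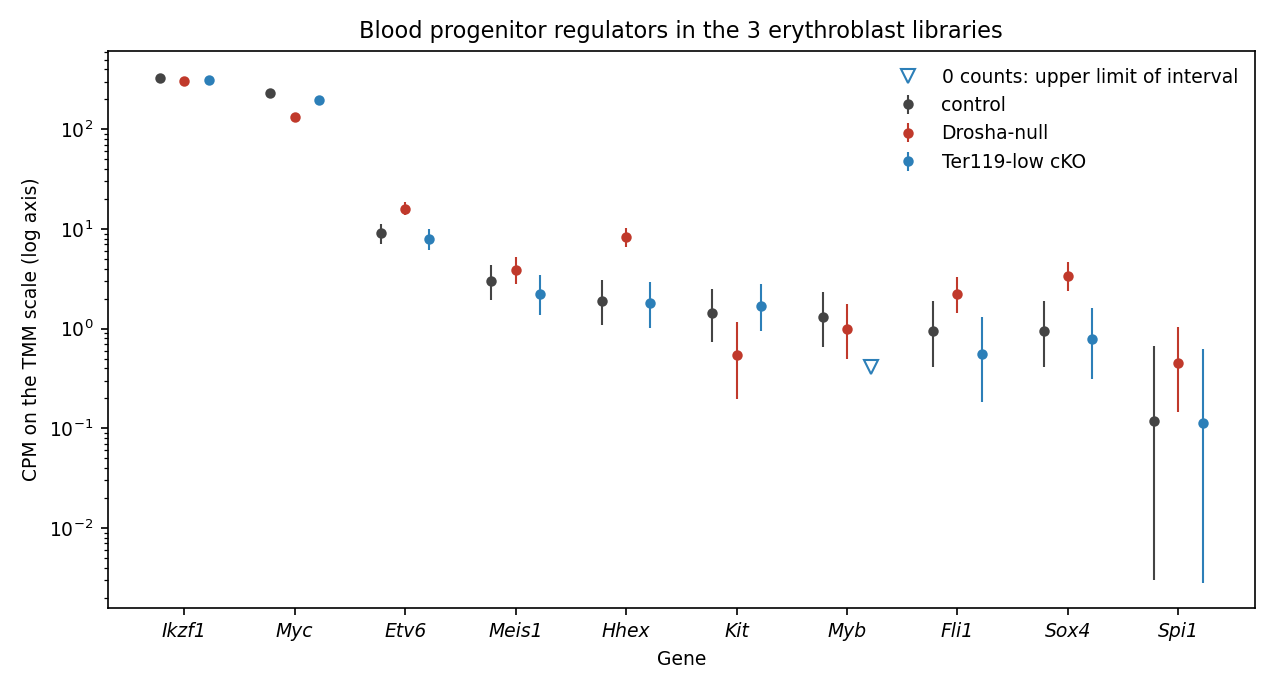
CPM on the TMM scale (log axis) of each of the 10 genes in the 3 libraries, with exact 95% Poisson intervals of the counts. The open triangle is the upper limit for Myb in the Ter119-low library, where it had 0 counts. Hhex, Sox4, Fli1 and Etv6 are highest in the Drosha-null library, and Ikzf1 lies near 300 CPM in each library.

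The first comparison asks how Ter119-high erythroblasts labelled as lacking Drosha differ from Ter119-high control cells. Hhex, Sox4 and Fli1 were called higher in the Drosha-null library, Etv6 was higher without reaching the size rule, and Myc was lower without reaching it. Of 9 members compared, 3 were called higher and 0 lower. Fli1 and Sox4 each stood at 0.952 CPM in the control. Both passed the filter of 1 CPM only through the Drosha-null library, at 2.24 and 3.41 CPM. Over all 10769 genes compared, 12.4% were called higher and 7.79% lower. Among the 4114 genes that reached 1 to 10 CPM in the higher library, where 6 members lie, 20.0% were called higher and 10.7% lower. The members' median log2 ratio was 0.36, against −0.02 over all genes compared. Under total counts, which raise every ratio of this comparison by 0.43, 4 of 9 members were called higher, with a median of 0.80. The share of all genes called under total counts was not computed, here or for the lists below. Spi1 stayed under 1 CPM in every library.

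Hhex, a homeobox repressor of early endothelium, blood and liver, had 16, 92 and 16 counts. The Drosha-null library alone was high, with a log2 ratio to the control of 2.08 (interval 1.34 to 2.98). Hhex lies on chromosome 19 at 37434810 to 37440731 (plus strand, GRCm38). Meis1, a homeobox cofactor of HOX proteins in stem cells, had 25, 43 and 20 counts. Its ratio of Drosha-null to control was 0.36 with an interval of −0.37 to 1.15, so a difference was not detectable at this depth. Meis1 (chromosome 11, 18879817 to 19018985, minus strand) shares exon sequence with the predicted gene Gm37818.

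Sox4, an HMG-box factor of lymphoid and progenitor cells, had 8, 38 and 7 counts, again high in the Drosha-null library alone. Its ratio of Drosha-null to control was 1.77 (0.72 to 3.15). The gene (chromosome 13, 28948919 to 28953713, minus strand) overlaps exons of Gm26735 on the opposite strand, and the strand setting of the counting is not given, so reads of the pair cannot be told apart.

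All 3 ETS factors of the list had their highest counts in the Drosha-null library, and of these Fli1 was called. Fli1, which acts in endothelial cells, progenitors and megakaryocytes and is known to hold back red-cell fate, had 8, 25 and 5 counts. The ratio of Drosha-null to control was 1.18, and its interval of 0.04 to 2.60 came close to 0. Etv6, a repressor needed by blood stem cells, had 76, 178 and 70 counts, with a ratio of 0.82 (0.43 to 1.23), so the interval excluded 0 while the ratio stayed under the size rule. Under scaling by total counts Etv6 reached 1.25 and was called. Fli1 lies on chromosome 9 (32422204 to 32542861, minus strand) and Etv6 on chromosome 6 (134035700 to 134270158, plus strand), where exons of Gm17089 on the opposite strand overlap it, with the limit given for Sox4. Spi1 (chromosome 2, 91082390 to 91115756, plus strand) had 1, 5 and 1 counts. The linear ratio of Drosha-null to control was 3.77 with an interval from 0.422 to 178, so it says nothing of a direction. Markers of macrophages and other myeloid cells, which express Spi1, summed to 8.09, 9.69 and 2.92 CPM over 15 listed genes of 21. Of them Lyz2 had 22, 27 and 18 counts and Mpo 6, 23 and 0. Of 3 compared, 1, Mpo, was called higher and 0 lower. Their median ratio of Drosha-null to control was −0.12 by TMM and 0.32 by total counts. The macrophage gene Cd68 stood at −0.78 by TMM and was not called. Ptprc, Fcgr3, Elane, C1qa and Aif1 have no counts in the tables used here.

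The summed level of endothelial markers was also higher in the Drosha-null library, beside Hhex and Fli1, which endothelial cells express. All 15 genes of that list were detected in the control and the Drosha-null library, with summed levels of 13.1, 24.0 and 11 CPM, and Tie1 and Cldn5 were at 0 counts in the Ter119-low library. Among defining markers Cdh5 had 12, 32 and 16 counts, Pecam1 3, 55 and 4, and Kdr 22, 26 and 9. Cdh5, at a ratio of Drosha-null to control of 0.97, was not called. Kdr stood at −0.17 (−1.04 to 0.72) and was not called. Of 9 endothelial genes compared with the control in the Drosha-null library, 2 were called higher (Pecam1 and Tek) and 1 lower (Robo4), and under total counts 6 higher and 0 lower. Megakaryocyte markers summed to 51.8, 71.0 and 59.6 CPM over 10 listed genes of 14, led by Itgb3 (312, 557 and 372 counts) and Itga2b (79, 126 and 96), while Gp6, Treml1 and Selp have no counts in the tables used here. Of 6 megakaryocyte markers compared, 1 was called higher (Gp1ba, with 3, 39 and 5 counts) and 0 lower. Cardiac muscle markers summed to 9.05, 29.9 and 6.85 CPM, and 3 of 4 compared were called higher (Ttn, Actc1 and Smyd1). Erythroid markers summed to 281900, 143400 and 245000 CPM. They stood lower in the Drosha-null library, with 6 of 18 called lower by TMM and 2 by total counts, and 0 higher by either. The part of such cells in the members' values was not tested.

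Kit, the receptor for stem cell factor, had 12, 6 and 15 counts. The Drosha-null library held the fewest, yet the ratio to the control of −1.35 had an interval of −3.11 to 0.12, and so Kit was not called. Kit (chromosome 5, 75574916 to 75656722, plus strand) is a marker of immature erythroid and progenitor cells, and at 0.13 to 0.31 FPKM it was scarce in all 3 libraries. Markers of early progenitors were scarce too, with summed levels of 5.12, 4.85 and 2.69 CPM over 7 listed genes of 10. Flt3 and Slamf1, which mark multipotent and stem cells, have no counts in the tables used here. Of 3 compared in the Drosha-null library 1 was called higher, Cd34, and 1 lower, Hoxa9.

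Myb, a factor required for definitive hematopoiesis, had 11, 11 and 0 counts. Both Ter119-high libraries thus held the same count, and their ratio of −0.41 (−1.75 to 0.94) turned to 0.03 under scaling by total counts. Myb lies on chromosome 10 (21124935 to 21160984, minus strand), where exons of Gm26577 overlap it on the opposite strand, with the limit given for Sox4.

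Myc and Ikzf1 had between 1474 and 3438 counts in each library, which gives them narrow counting intervals. Myc, which drives growth and ribosome production and declines as red cells mature, had 1956, 1474 and 1770 counts. It was lowest in the Drosha-null library, with a ratio to the control of −0.82 (−0.91 to −0.72), under the size rule. Under scaling by total counts it was −0.38, the same direction. Ikzf1, which encodes the zinc finger factor Ikaros of lymphoid and red cells, had 2767, 3438 and 2780 counts. Its ratio of Drosha-null to control was −0.09 (−0.17 to −0.02) by TMM and 0.34 by total counts, so the direction rested on the scaling. Myc lies on chromosome 15 (61985391 to 61990374, plus strand) and Ikzf1 on chromosome 11 (11685003 to 11772926, plus strand).

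**Figure D3:**
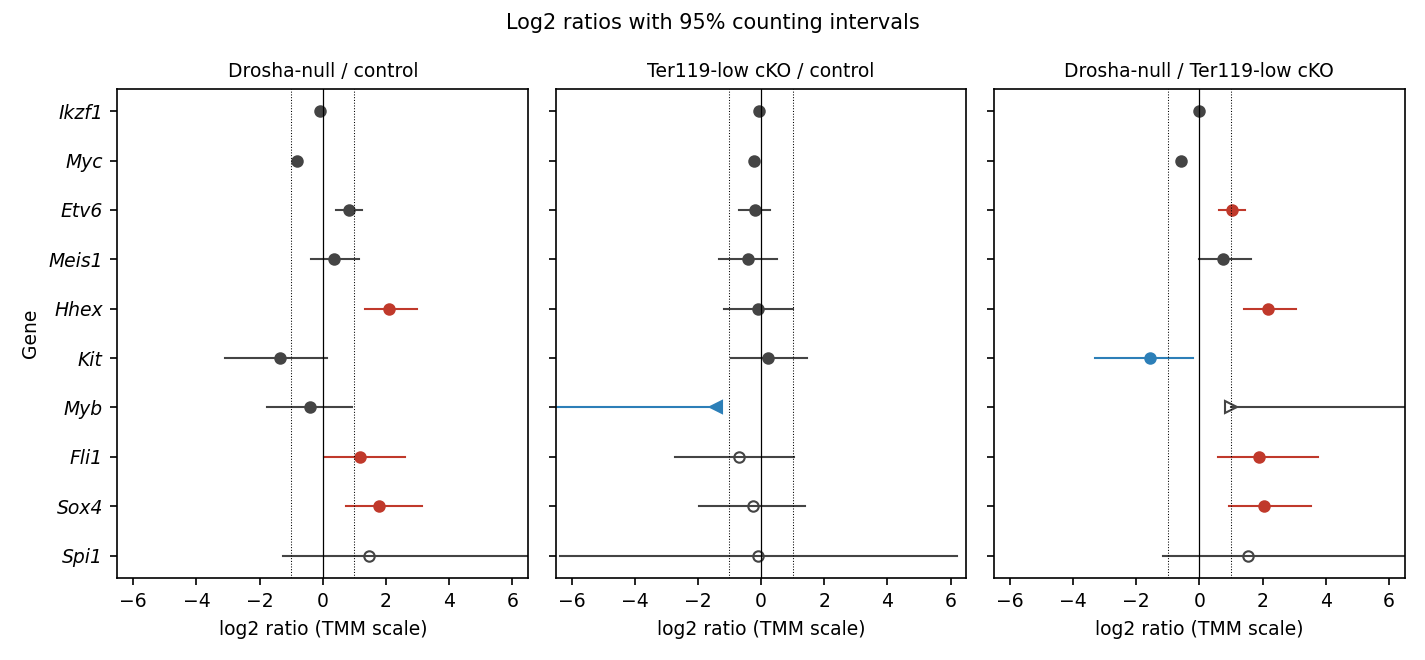
Log2 ratios of the 10 genes in the 3 comparisons with 95% counting intervals (lines run to the axis limit where the interval is wider). Red genes were called higher and blue lower, open symbols were under 1 CPM in both libraries, triangles stand at the interval bound where a library had 0 counts, and dotted lines mark the ratio of 2. Hhex, Sox4 and Fli1 lie above 1 in the left and right panels.

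The second comparison sets the Ter119-low cKO cells, labelled as holding Drosha, beside the control, from which they differ in both gate and genotype. Of 7 members compared, 0 were called higher and 1, Myb, was called lower. Myb passed the filter of 1 CPM only through the control, at 1.309 CPM. Over all 10591 genes compared, 2.9% were called higher and 2.76% lower, and among the 4246 at 1 to 10 CPM, where 5 members lie, 6.83% and 6.55%. Against 11 control counts the Ter119-low library had 0, and at the floor of 3 counts Myb was at least 3.89-fold lower, taking the 11 counts as exact. With their counting error too, the interval of the log2 ratio reached up to −1.41. The members' median ratio was −0.20, against 0.00 over all genes compared, and it was the same with Myb placed at its bound.

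The other 6 members compared were not called in the Ter119-low library over the control. The ratio of Hhex was −0.08 (−1.18 to 1.01), which became 0.01 by total counts, and that of Etv6 −0.20 (−0.69 to 0.28). Meis1 stood at −0.40 (−1.33 to 0.50) and Kit at 0.23 (−0.96 to 1.46), and these intervals, like that of Hhex, leave room for differences of the size of the rule. Fli1 and Sox4 were under 1 CPM in both libraries and were not compared. For Myc the ratio was −0.23 (−0.32 to −0.14), and for Ikzf1 −0.08 by TMM (interval −0.15 to 0.00) and 0.02 by total counts.

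The last comparison sets both cKO libraries beside each other, which share genotype and differ in gate and in the label for Drosha. It shares a library with each comparison above and is no independent repeat of them. Of 8 members compared, 4 were called higher in the Drosha-null library, Hhex, Sox4, Fli1 and Etv6, and 1, Kit, was called lower. Sox4 and Fli1 passed the filter of 1 CPM only through the Drosha-null library, and Kit only through the Ter119-low library. Over all 10795 genes compared, 10.8% were called higher and 5.94% lower, and of genes at 1 to 10 CPM 18.2% were called higher and 9.18% lower. Hhex stood at 2.16 (1.43 to 3.07), Sox4 at 2.04 (0.94 to 3.53), Fli1 at 1.89 (0.59 to 3.74) and Etv6 at 1.02 (0.62 to 1.44). For Kit, with 6 and 15 counts, the ratio was −1.58 (−3.30 to −0.20). That call was lost under scaling by total counts, where the ratio was −1.24. Myc stood at −0.59 (−0.69 to −0.49) and Meis1 at 0.76 (−0.02 to 1.63). Ikzf1 stood at −0.02 (−0.09 to 0.06) by TMM and at 0.32 by total counts. Myb had 11 counts against 0, at least 2.93-fold higher in the Drosha-null library at the floor of 3 counts, taking the 11 counts as exact. Its interval began at a log2 ratio of 1.005, and at 0.987 CPM it fell just under the level needed for a call.

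**Figure D4:**
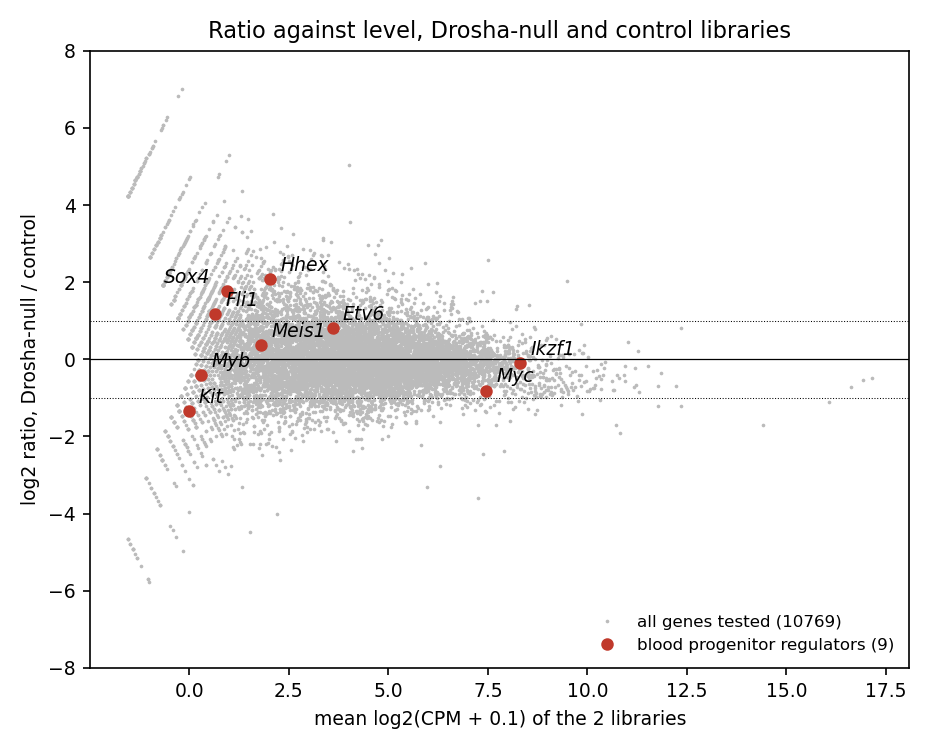
Log2 ratio of Drosha-null over control against the mean level of both, for all 10769 genes compared (grey) and the 9 members compared (red, named), with dotted lines at the ratio of 2. Hhex, Sox4 and Fli1 lie above the upper line at low levels, where the grey points spread widely, and Myc (−0.82) and Ikzf1 (−0.09) lie at high levels between the dotted lines.

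Other regulators of blood progenitors, such as the partners and relatives of the members, were read in the same way. The shares to set beside each list for Drosha-null over control were 12.4% higher and 7.79% lower, over all genes compared. Of 22 compared between the Drosha-null library and the control, 2 were called higher (Runx1 and Prdm16) and 1 lower (Hoxa9), with a median of −0.25. Under total counts these numbers were 6 and 1, and the median was 0.19. Runx1, which is required for definitive stem cells to form, had 80, 836 and 120 counts, with a ratio of Drosha-null to control of 2.97 (2.65 to 3.33). The most abundant of this list by FPKM were Tal1 (3646, 3029 and 3708 counts), the erythroid and stem cell bHLH factor, and Cited2 (903, 785 and 1023). Hoxa9, a partner of Meis1 in stem cells, had 14, 3 and 5 counts and was called lower in both cKO libraries over the control. Gata2, with 11, 13 and 3 counts, was called lower in the Ter119-low library, as 1 of 2 genes of the list so called. Both of these calls in the Ter119-low library were lost under total counts, where 0 of 20 were called lower. Hoxa9, Gata2 and Prdm16 (2, 15 and 5 counts) lie under 10 CPM and were named after their values were seen.

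Receptors of progenitor cells included 4 of 10 called higher and 0 lower, and their median was 0.46. Csf2rb2 and Csf2rb, near-identical neighbours that encode receptor subunits for interleukin-3 and related cytokines, had ratios of 2.57 (2.45 to 2.69) and 2.03 (1.97 to 2.08), and reads may be split between them. Il6st, the shared signalling subunit of interleukin-6 receptors, stood at 1.58 (1.38 to 1.79), and the progenitor and endothelial surface gene Cd34 had 8, 26 and 7 counts. The erythropoietin receptor Epor, the most abundant of the list by FPKM, had 1177, 1151 and 1138 counts, with a ratio of Drosha-null to control of −0.44 by TMM.

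Genes that carry or damp the signal of Kit included 5 of 16 called higher and 0 lower, and their median was 0.34. Ptpn6, the phosphatase SHP-1 that damps Kit and cytokine receptors, had 0, 44 and 7 counts. At the floor of 3 counts Ptpn6 was at least 11.1-fold higher in the Drosha-null library than in the control, taking the 44 counts as exact. With their counting error too, the interval began at a log2 ratio of 3.11. The adaptor gene Gab2 had 16, 95 and 37 counts (2.13, 1.39 to 3.03), and the kinase gene Lyn had 40, 107 and 38 (ratio 1.0, 0.48 to 1.57). Pik3cd (2, 15 and 2 counts) and Mitf (2, 13 and 11) were called on few counts, and all 5 lie under 10 CPM. The abundant Shc1 had 443, 443 and 527 counts and Ptpn11, the phosphatase SHP-2, had 747, 577 and 770.

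In the Myc network 2 of 17 genes were called higher and 0 lower, and the median was 0.21. Under total counts 8 of 17 were called higher. Mxd3, which competes with Myc for the partner Max, had 10, 45 and 25 counts and was called higher in both cKO libraries over the control, and Mycl, a Myc relative, had 7, 29 and 12 and was called higher in the Drosha-null library. Max itself had 944, 933 and 888 counts. Of 8 relatives and partners of Myb, 2 were called higher and 1 lower. Their median of −0.41 became 0.03 by total counts. Kat2b, an acetyltransferase gene, stood at 1.62 (1.28 to 1.98), Mybl1 had 23, 90 and 41 counts, and Taf12 stood at −1.07 by TMM, a call lost under total counts.

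Of 10 genes of the Ikaros family and its repressor complexes, 0 were called higher and 1 lower, and the median was −0.17 by TMM and 0.27 by total counts. That gene was Ctbp1, a corepressor, at −1.06 (−1.25 to −0.87) by TMM, and this call was lost under total counts. The ETS family outside the members had 1 of 12 called higher, Elf4, with 6, 48 and 8 counts (2.49, 1.37 to 4.11), and 2 under total counts. Its most abundant genes, Gabpa and Elk4, stood at −0.09 and 0.12, and Gabpa was above 0 by total counts. Among Meis, Pbx and Hox genes 0 of 15 were called higher and 1, Hoxa9, lower, whereas under total counts 5 of 15 were called higher. Of 5 Sox genes compared 0 were called higher and 1, Sox9, lower, a call lost under total counts. The closest relatives of Sox4, Sox11 and Sox12, had 252, 323 and 188 and 129, 143 and 132 counts.

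The same lists held few calls in the Ter119-low library over the control, where 2.9% of all genes compared were called higher and 2.76% lower. No gene was called among 8 Myb partners, 10 genes of the Ikaros list and 11 ETS genes. Of 20 other regulators 2 were called lower and 0 higher (0 and 0 under total counts), and of 10 receptors Kdr, an endothelial receptor gene, was lower with 22, 26 and 9 counts. In the Kit list Gab2 and Mitf were higher, as 2 of 15, and in the Myc network Mxd3 was, as 1 of 16. Hoxa9 and Hoxc6 were lower of 14 Meis, Pbx and Hox genes, and Sox6 and Sox9 of 5 Sox genes. Under total counts 1 call remained in each of these last lists.

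Between the cKO libraries most calls in these lists were higher in the Drosha-null one. The same held over all genes compared, of which 10.8% were called higher and 5.94% lower. They numbered 6 of 17 in the Kit list, 5 of 10 receptors, 3 of 12 ETS genes, 2 of 21 other regulators and 2 of 17 in the Myc network, with 0 lower in each of the 5 lists. Under total counts 6 of 21 other regulators and 3 of 17 in the Myc network were higher. The ETS genes were Ets1 (27, 66 and 22 counts), Elk3 (35, 65 and 22) and Elf4, and the Myc network genes were the Max partners Mxd1 (110, 246 and 71) and Mxd4 (5, 18 and 2). The lower calls were Taf12, 1 of 8 Myb partners, and Ctbp1, 1 of 10 in the Ikaros list, and both were lost under total counts. These genes were named for their calls, after their values were seen.

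**Figure D5:**
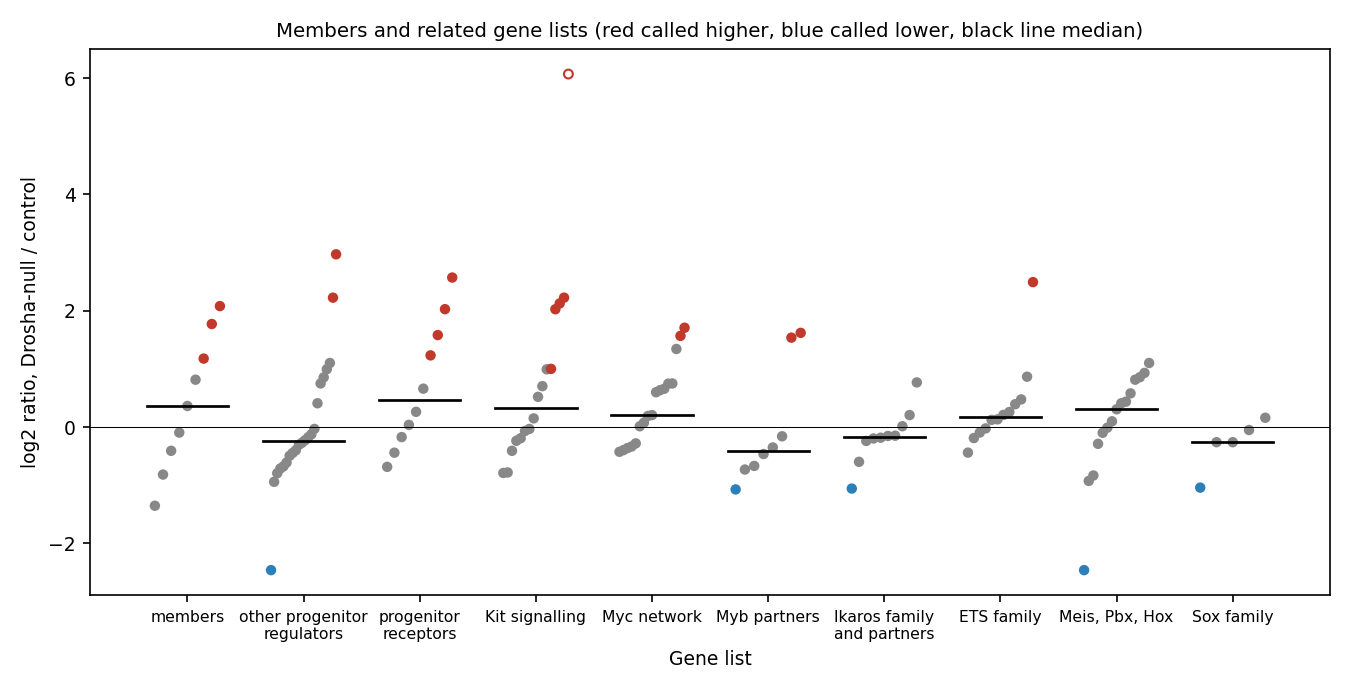
Log2 ratio of Drosha-null over control for each gene compared in the members and 9 related lists, with red points called higher, blue points called lower and a line at the median. An open point is a gene at 0 counts in 1 library, whose plotted height depends on the 0.5 counts added. Medians run from −0.41 (Myb partners) to 0.46 (progenitor receptors).

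For the 3 members at 10 CPM or more, the genes nearest in both ratios to the control were sought among 6608 genes at that level. With 3 libraries a pattern is a pair of ratios and no more. Nearest to Etv6 were Raph1 (70, 165 and 65 counts), Cisd2 (163, 375 and 150) and Galnt2 (83, 195 and 78), at distances of 0.015, 0.023 and 0.029 on the log2 scale. Nearest to Myc were Lsm1, Tusc2 and Rps18, and nearest to Ikzf1 were Scrn3, Susd1 and Ppid, within 0.013 in each case.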

How the data were processed

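The series holds 3 mouse RNA sequencing libraries, 1 in each of 3 groups taken from the labels. The deposited tables hold unscaled expected counts, the authors' estimate of the reads of each gene. The authors' FPKM values are scaled for gene length and depth, per the file headers, with 0.001 entered at 0 counts. The deposited log2 ratios, p-values and FDR scores, from a comparison of 1 library with 1 library, were not used. For the aligner, counting program, strand setting and genome build: not given in the sources used here.

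There were 14640 and 14300 genes in the tables. They were joined by gene ID into 15058 genes, with 0 counts where a gene was in 1 table alone (758 and 418 genes, 0 of them with control counts). Counts were rounded to whole numbers. Symbols came from the files and, by gene ID, from RefSeq's GRCm38.p6 table (15022 matched). TMM scaling (edgeR 4.0.16, R 4.3.3) gave factors of 0.885 (control), 1.19 (Drosha-null) and 0.946 (Ter119-low). Log2 ratios between libraries had 0.5 added to each count, and their 95% intervals came from the exact Clopper-Pearson method. A gene was compared when it reached 1 CPM on the TMM scale in either library. It was called when the ratio was at least 2 either way and the interval excluded 1. For folds given as at least, and for the median with Myb at its bound, a gene at 0 counts was set at a floor of 3 counts. The procedure was tested on simulated Poisson counts, which hold counting error and no spread between pools. No test between conditions was possible, as each has 1 library.

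The longest annotated 3' UTR of each gene in the basic GENCODE M21 set (GRCm38) was searched for 7-base matches to microRNA seeds. The alternatives were total counts, DESeq2 1.42.0 size factors, TMM without ribosomal RNA and the 10 most abundant genes, FPKM ratios with 0.1 added, 1 count added, other filters (none, 5 CPM), a ratio of 1.5 and 8-base sites. All 10 members are described. From each related list at most the 2 most abundant genes by control FPKM are named, and up to 3 called genes at 10 CPM or more; some genes of the lists are not reported here. Called genes below 10 CPM that are named were chosen after their values were seen. The members and lists were chosen with earlier results of these data known. Computations used Python 3.11.15, SciPy 1.17.1 and pandas 2.3.3.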

Additional observations from a re-analysis of the deposited data

How the results depend on the processing

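Scaling by total counts raised ratios by 0.43 (Drosha-null over control), 0.10 (Ter119-low over control) and 0.34 (Drosha-null over Ter119-low). It added Etv6 to the first comparison's calls and Myb and Meis1 to the last one's, all higher. It left 0 members called lower between the cKO libraries, as Kit was lost, as did the FPKM ratios. A filter of 5 CPM left 1 member called higher in the first comparison and 2 in the last, with 0 lower in the last and 0 lower for Ter119-low over control. These losses follow from the filter, since Fli1, Sox4, Kit and Myb lie under 5 CPM. At a ratio of 1.5 the members called lower in the Drosha-null library were 1 against the control and 2 against the Ter119-low library, Myc being added each time, and Etv6 was added as higher in the first comparison. With no filter Myb was added as higher in the last. The 8-base seed search left 6 members with a site. DESeq2 size factors, TMM without the most abundant genes and 1 count added changed no member's call. No called member changed sign under any alternative run. Depth limits the 6 members with at most 43 counts in every library (Meis1, Sox4, Fli1, Kit, Myb and Spi1). No paired analysis was possible because each group has 1 library.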
